A study of Mus musculus with 2 samples.

Results

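Thy1, S100a4, Snai2, Snai1 and Eng were examined as genes of mesenchymal identity, together with both measured members of the Snail family of transcription factors. They were found by the gene symbol that the array's annotation gives each probe, and they are 5 of the 11484 genes measured, with 1 probe each. The array was the 1-colour Phalanx Mouse Whole Genome OneArray, and its deposited values are linear, normalised intensities of single probes.

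One sample was of stem cells that the series title ascribes to a small molecule, at passage 5 and in ES (embryonic stem cell) medium, here called the stem cells. The other was of their parental cells, at passage 1 and in FBS (fetal bovine serum) medium. Both were labelled as mouse, of the embryo stage and of the strain C57/ICR, and the agent is not named in the labels beyond the word PEG in the design text, read here as the treated cells. The comparison asks how expression in the stem cells differed from that in the parental cells, between which passage, medium and treatment differed together. The design text speaks of 3 replicates for each sample. The table analysed has a single column for each, so no test between the samples was possible and every difference below is a description of 2 columns. In bulk samples, fewer cells of a type and less RNA per cell cannot be told apart.

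Mesenchymal cells are loose, motile cells that lay down connective tissue, and fibroblasts grown from embryos are of this kind. THY1 (CD90) is a surface glycoprotein held by a lipid anchor and S100A4 a small calcium-binding protein of motile cells, also called fibroblast-specific protein. Endoglin (CD105), encoded by Eng, is a co-receptor for BMP and TGF-beta ligands. SNAI1 (Snail) and SNAI2 (Slug) are zinc finger repressors that bind E-boxes in the promoters of epithelial genes and drive the epithelial-to-mesenchymal transition (EMT). The reverse transition is known as an early step when fibroblasts are reprogrammed to pluripotency.

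The 5 genes did not move together. Thy1, S100a4 and Snai2 were bright in the parental cells and low in the stem cells, whereas Snai1 was somewhat brighter in the stem cells and Eng differed little. A floor was set at the 25th percentile of each column, 93.4 in the stem cells and 93.8 in the parental cells. It is a cut on brightness and not a measured detection limit. Genes below it in both samples are called dim and have no fold. Where only 1 value was below it, the fold is a lower bound, taken against the floor of that column. At a difference of 2-fold or more, 3 of the 5 were lower in the stem cells and 1 was higher. Over the whole array, 9766 genes exceeded the floor in either sample, and 22.6% of them were lower and 22.1% higher by that rule, or 20.8% and 20.5% after raising sub-floor values to the floor.

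Thy1 had an intensity of 117 in the stem cells, against 40943 in the parental cells. The stem value lay just above the floor, and the difference of -8.45 on the log2 scale was a 349-fold lower signal. None of the 8211 genes above the floor in both samples had a lower difference. That rank leaves out genes below the floor in the stem cells, so Thy1 cannot be called the most reduced gene of the array. The elastin gene Eln, left out at 81.2 in the stem cells against 30091 in the parental cells, was at least 322-fold lower. Its log2 difference as measured was -8.53. S100a4 was at 201 in the stem cells and at 31578 in the parental cells, 157-fold lower (log2 difference -7.29), and 4 of the 8211 genes had a lower difference. Snai2 had 32.8 in the stem cells, a value below the floor, against 3095 in the parental cells, at least 33.1-fold lower.

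Snai1 was at 1833 in the stem cells and at 833 in the parental cells, 2.20-fold higher (log2 difference 1.14). When 3 classes of probe identifiers were centred separately, that difference was 0.98, short of 2-fold. This alternative was chosen after seeing the data. Eng was at 1025 in the stem cells and at 715 in the parental cells, a 1.43-fold difference (log2 difference 0.52) that did not reach 2-fold. Both genes were thus well above the floor in both samples, unlike Thy1, S100a4 and Snai2 in the stem cells. Across the 8211 genes above the floor in both, 5% had a log2 difference under -2.58 and 5% one over 2.04, with a median of 0.13, so that Snai1 and Eng lay inside the bulk of genes.

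**Figure D1:**
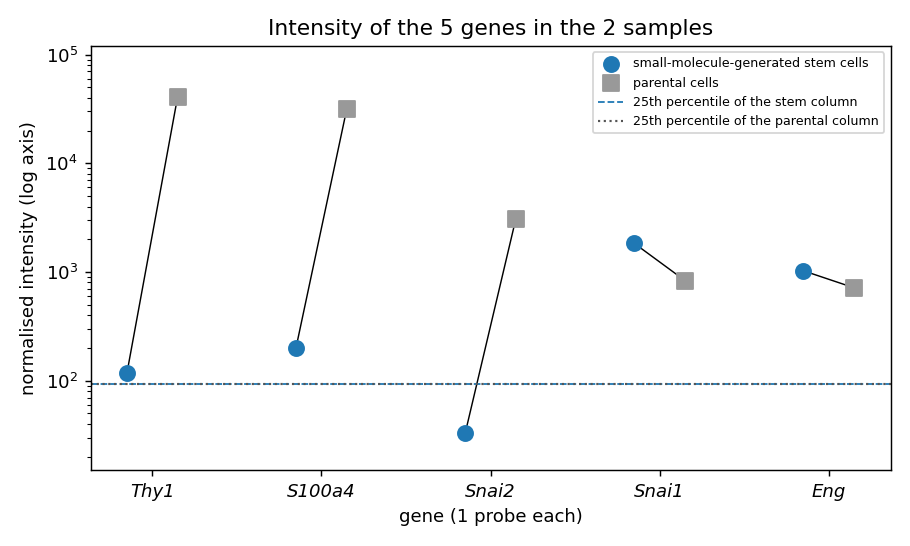
Normalised intensity (log axis) of each gene's probe in the stem cells (blue circles) and the parental cells (grey squares), 1 sample each, with the 25th percentiles of both columns as nearly coincident horizontal lines at 93.4 and 93.8. Thy1, S100a4 and Snai2 drop to 117, 201 and 32.8 in the stem cells, while Snai1 and Eng stand at 1833 and 1025 there.

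With no replicate, the only error that could be measured was that between probes. In the 601 genes with 2 probes, each above the floor in either sample, log2 differences of single probes scattered around the gene's mean with an SD of 1.05, or 2.08-fold. The difference of Snai1 was 1.08 such SDs and that of Eng 0.49. Partner probes of a gene lay at least as far apart as the Snai1 difference in 35.9% of the 601 genes and as the Eng difference in 66.2%, so a difference of either size was not rare between 2 probes of one gene. For Snai2, at its bound of -5.05, 3 genes had probes that far apart, and for Thy1 and S100a4 there were 0, the widest gap being 6.85. This error does not cover differences between cultures.

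**Figure D2:**
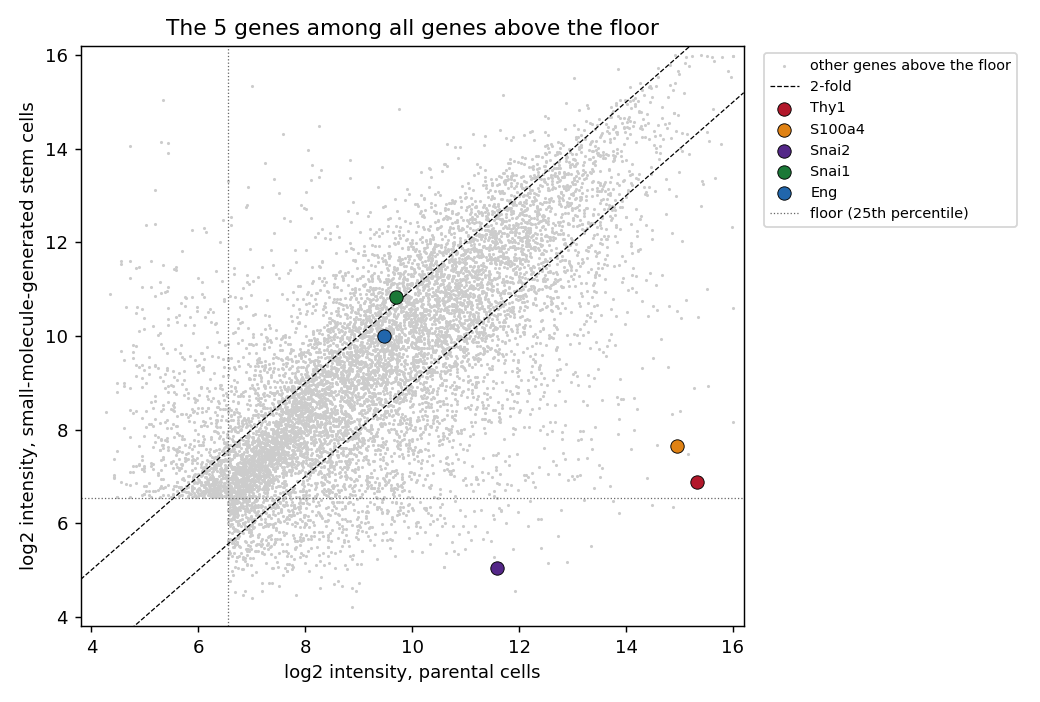
Log2 intensity in the stem cells (vertical) against the parental cells (horizontal) for genes above the floor in either sample (grey), with the 5 genes coloured, the 2-fold lines dashed and the floors dotted. Thy1, S100a4 and Snai2 lie far below the lower 2-fold line, Snai1 just past the upper one and Eng between the lines.

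Snai1 did not share the lower signal of Snai2, a close relative with the same zinc finger type and E-box preference. With Snai2 at its bound, the log2 difference of Snai1 exceeded that of Snai2 by 6.19, and in 1 of the 601 genes the probes of a single gene were that far apart. Snai1 is needed for mouse gastrulation and is known from ES cells leaving the pluripotent state, and Snai2 is known in mouse from neural crest and from cultured fibroblasts. Of the neural crest markers, 8 were measured besides Snai2, 2 of them dim. Among these Ets1, a transcription factor also made by mesenchymal and blood cells, was 33.4-fold lower in the stem cells (131 in the stem cells, 4373 in the parental cells), and 5 differed by less than 2-fold. Sox10, a defining factor of the crest, was at 286 in the stem cells and 559 in the parental cells, and the whole list summed to 3558 in the stem cells and 7215 in the parental cells. Ets1 carried that order, since without it the sums were 3428 in the stem cells and 2842 in the parental cells. The part of such cells in the Snai2 difference was not tested.

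The promoters of the Snail pair could be shown only for Snai1, and those of S100a4 and Eng are given for comparison, because no sequence was matched for Thy1 and Snai2. The sequences are RefSeq's (build GRCm38.p6, plus strand, 5′ to 3′), the 250 bases before the annotated start. The Snai1 window is chr2:167537945-167538194, that of S100a4 chr3:90603520-90603769 and that of Eng chr2:32646345-32646594. Capitals mark the E-box CANNTG, of which CAGGTG, the form that Snail proteins prefer, is a subset. On the opposite strand that form is read as CACCTG.
Snai1: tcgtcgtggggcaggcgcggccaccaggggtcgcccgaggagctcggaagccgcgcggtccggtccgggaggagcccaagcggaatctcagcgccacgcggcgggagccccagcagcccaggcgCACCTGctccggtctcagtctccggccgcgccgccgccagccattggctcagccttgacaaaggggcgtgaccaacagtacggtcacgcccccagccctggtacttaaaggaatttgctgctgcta
S100a4: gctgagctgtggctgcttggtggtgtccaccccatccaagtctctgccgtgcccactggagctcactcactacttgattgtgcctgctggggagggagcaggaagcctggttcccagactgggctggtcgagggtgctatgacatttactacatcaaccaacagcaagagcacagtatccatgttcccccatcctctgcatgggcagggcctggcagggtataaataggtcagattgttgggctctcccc
Eng: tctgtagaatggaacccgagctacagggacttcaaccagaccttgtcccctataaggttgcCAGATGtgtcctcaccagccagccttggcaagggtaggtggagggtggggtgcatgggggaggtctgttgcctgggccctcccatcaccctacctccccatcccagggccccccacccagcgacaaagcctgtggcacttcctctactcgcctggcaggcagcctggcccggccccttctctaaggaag

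The Snai1 window held 1 Snail-type E-box, whose first base lies 126 bases before the start. The Eng window held 1 E-box of another form, 189 bases before the start, and the S100a4 window held 0. Searched on both strands, CAGGTG occurred in 17.2% of 32851 windows of this length and CANNTG in 66.2%. The Snai1 window was also the richest of the 3 in G and C, at 70% against 57.2% for S100a4 and 62.4% for Eng, with a median of 52.4% over all windows. A match describes letters and shows no binding.

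Other transcription factors of EMT were more often lower than higher in the stem cells. Of 8 measured besides the Snail pair, 5 were 2-fold or more lower, or 4 after raising sub-floor values to the floor, and 1 was higher, and the median log2 difference was -1.35 (-0.84 after raising sub-floor values to the floor), against 0.12 over all 9766 genes. Prrx2, a homeobox factor of limb and facial mesenchyme, had 68 in the stem cells, below the floor, against 2961 in the parental cells, at least 31.7-fold lower. Zeb1, the zinc finger repressor of epithelial genes, was at 402 in the stem cells and 2692 in the parental cells, 6.70-fold lower. The forkhead factor gene Foxc2 was 3.72-fold lower (487 in the stem cells, 1814 in the parental cells) and Tcf4, an E-protein, 2.38-fold lower (1072 in the stem cells, 2547 in the parental cells).

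Tcf3, Gsc and Tbx18 lay within 2-fold or near the floor. Tcf3, which encodes the E-proteins E12 and E47, was at 1412 in the stem cells and 1874 in the parental cells, and Gsc, the homeobox gene goosecoid, at 261 in the stem cells and 353 in the parental cells. Tbx18, a T-box gene, had 38.8 in the stem cells, below the floor, against 106 in the parental cells, so that its bound was 1.14-fold. Klf8, a zinc finger factor, was 2.36-fold higher in the stem cells (292 in the stem cells, 124 in the parental cells), a difference of the size of that of Snai1.

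The SNAG domain at the start of SNAI1 and SNAI2 recruits the demethylase KDM1A, the SIN3A and HDAC complexes and Polycomb proteins, and ubiquitin ligases turn the proteins over. Of 27 measured genes of these cofactors and of Snail protein stability, 7 were higher and 8 lower in the stem cells, with 1 dim and a median of 0.31. Loxl2, a lysyl oxidase reported to stabilise SNAI1, was 39.3-fold lower (376 in the stem cells, 14774 in the parental cells). Ctdsp2, a phosphatase gene, was 6.31-fold lower (1979 in the stem cells, 12485 in the parental cells) and Prkd1, a protein kinase gene, 5.77-fold lower (123 in the stem cells, 709.7 in the parental cells). On the other side, Fbxo22 (3434 in the stem cells, 1131 in the parental cells) and Fbxl5 (5042 in the stem cells, 1867 in the parental cells), both F-box genes of ubiquitin ligases, were 3.04-fold and 2.70-fold higher. Parp1, the poly(ADP-ribose) polymerase gene, was 2.68-fold higher (8766 in the stem cells, 3266 in the parental cells). Kdm1a, at 9327 in the stem cells and 6386 in the parental cells, differed by less than 2-fold.

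Epithelial genes, among them known targets of Snail repression, were more often higher than lower in the stem cells. Of 26 measured, 14 were higher and 4 lower by 2-fold or more and 2 were dim, with a median log2 difference of 1.67, or 1.53 after raising sub-floor values to the floor. Spint1, which encodes a membrane inhibitor of serine proteases, was at least 56.6-fold higher (5312 in the stem cells, 32.7 in the parental cells). Its target St14, the protease matriptase, was at least 25.8-fold higher (2416 in the stem cells, 26.4 in the parental cells), and Cldn6, a claudin gene of tight junctions, at least 43.7-fold higher (4098 in the stem cells, 85.2 in the parental cells). In the other direction stood Vdr, the vitamin D receptor gene, at least 4.82-fold lower (45.8 in the stem cells, 450.3 in the parental cells). Cdh3, which encodes P-cadherin, was 3.23-fold lower (404 in the stem cells, 1307 in the parental cells), and another claudin gene, Cldn1, 3.01-fold lower (99.2 in the stem cells, 299 in the parental cells).

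Upstream windows were matched for 17 of these 26 genes, 19 windows in all, and 11 of the windows (57.9%) held CAGGTG. By gene, 8 of the 10 higher genes with a window held it, as did 1 of the 3 lower ones, 0 of the 3 within 2-fold and the 1 dim gene. Over all 27025 genes with a window the share was 19.4%. The list was drawn up partly from genes whose E-boxes are known to be bound by Snail proteins, so its share is not independent of that choice.

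**Figure D3:**
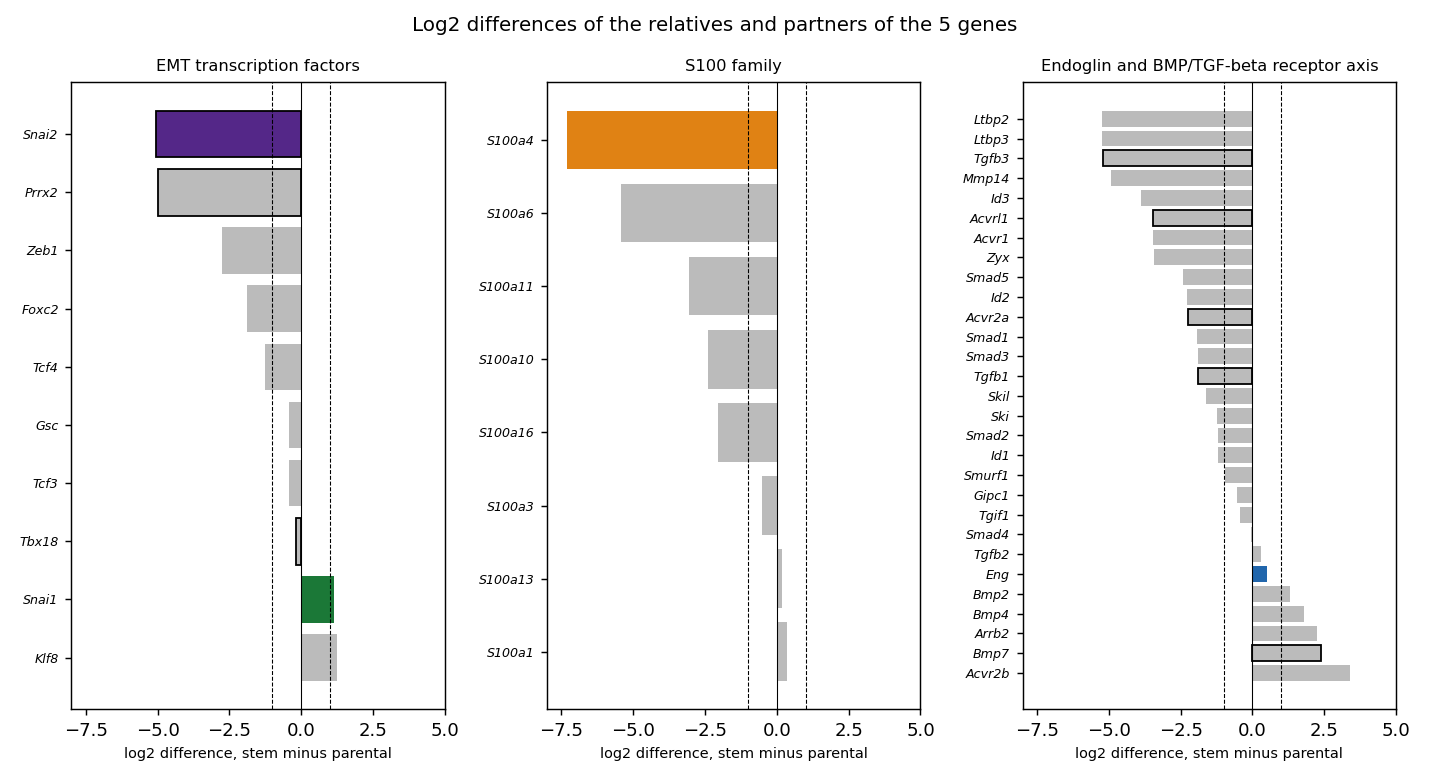
Log2 differences, stem minus parental, of EMT transcription factors, the S100 family and the endoglin axis, with Snai2, Snai1, S100a4 and Eng coloured. Genes dim in both samples are left out, outlined bars have 1 value under the floor set to it, and dashed lines mark 2-fold. Snai2 and S100a4 have the longest bars towards the parental side in their panels, at -5.05 and -7.29, while Eng stands at 0.52.

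S100a4 belongs to a family of small EF-hand calcium sensors. Of 9 relatives measured, 4 were lower in the stem cells, none was higher, 3 differed by less than 2-fold and 2 were dim. The median over the 7 above the floor was -2.06. S100a6 (calcyclin) was at 1542 in the stem cells and 65492 in the parental cells, where the value sat near the ceiling of a 16-bit scanner (65535), so it was at least 42.5-fold lower. S100a11 was 8.29-fold lower (2034 in the stem cells, 16870 in the parental cells). S100a10, the partner of annexin A2, was 5.29-fold lower (3638 in the stem cells, 19248 in the parental cells) and S100a16 4.16-fold lower (257 in the stem cells, 1068 in the parental cells).

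The relatives within 2-fold were S100a3 (175 in the stem cells, 247 in the parental cells), S100a13 (2737 in the stem cells, 2439 in the parental cells) and S100a1, the heart and muscle member, at 969 in the stem cells and 763 in the parental cells. S100a5 and S100z were dim. Short, similar transcripts of a gene family can share signal on a probe, which was not tested because probe sequences were not used here.

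S100A4 acts by binding cytoskeletal and surface proteins. Of 20 measured genes of its partners and of proteases linked to it, 10 were lower and 2 higher in the stem cells (median log2 difference -1.22, or -1.02 after raising sub-floor values to the floor). Its best-known partner, the heavy chain of non-muscle myosin IIA encoded by Myh9, was nearly equal, at 25801 in the stem cells and 25990 in the parental cells. The paralogs differed, Myh10 being 7.13-fold lower (324 in the stem cells, 2307 in the parental cells) and Myh14 at least 6.49-fold higher (609 in the stem cells, 45.9 in the parental cells). Mmp2, a gelatinase gene, was 44.5-fold lower (407 in the stem cells, 18101 in the parental cells) and Egfr, the EGF receptor gene, 41.8-fold lower (117 in the stem cells, 4904 in the parental cells). Sdc3, the syndecan gene, was at least 33.0-fold lower (92.6 in the stem cells, 3080 in the parental cells). Cacybp, which encodes the calcyclin-binding protein, was 2.64-fold higher (14513 in the stem cells, 5489 in the parental cells).

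THY1 sits in lipid rafts and binds integrins on neighbouring cells. Of 26 measured genes of its partners, of other lipid-anchored surface proteins and of the enzymes that make the anchor, 7 were lower, or 6 after raising sub-floor values to the floor, and 2 higher in the stem cells, and the median was -0.22. The raft protein gene Cav1 (caveolin) was 203-fold lower (180 in the stem cells, 36558 in the parental cells). Cd109, another lipid-anchored surface gene, was at least 18.6-fold lower (61.2 in the stem cells, 1739 in the parental cells) and Itgb5, an integrin subunit gene, 5.78-fold lower (1044 in the stem cells, 6030 in the parental cells). The integrin genes Itgav (3462 in the stem cells, 5553 in the parental cells) and Itgb3 (814 in the stem cells, 711 in the parental cells), which encode a receptor for THY1, differed by less than 2-fold. Bst2 (tetherin) was 3.94-fold higher (4985 in the stem cells, 1264 in the parental cells) and Piga, which encodes an enzyme of the first step of anchor synthesis, 2.17-fold higher (2181 in the stem cells, 1006 in the parental cells).

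Outside mesenchyme, mouse Thy1 is a marker of T cells and neurons. Of 9 measured T cell genes 4 were higher in the stem cells, or 3 after raising sub-floor values to the floor, 1 was lower and 2 were dim, and the list summed to 2804 in the stem cells and 1632 in the parental cells. The lower gene was Bcl11b, a transcription factor also made in skin and nerve, at least 8.85-fold lower (86.4 in the stem cells, 827 in the parental cells). Cd3e, a subunit of the T cell receptor complex, was 3.95-fold higher (1022 in the stem cells, 259 in the parental cells). Among 15 measured neuronal genes, 9 had higher and 1 had lower signal, 2 being dim, with a sum of 27420 in the stem cells and 5573 in the parental cells. The part of T cells and neurons in the Thy1 difference was not tested.

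Eng did not share the lower signal of Acvrl1, the gene of its kinase receptor partner. Endoglin presents BMP9 and BMP10 to the kinase receptor ALK1, encoded by Acvrl1, a receptor that signals through SMAD1 and SMAD5 to the Id genes. Of 31 measured genes of the BMP and TGF-beta axis besides Eng, 18 were lower, 5 higher and 3 dim, with a median of -1.76. Acvrl1 had 80.6 in the stem cells, below the floor, against 1023 in the parental cells, at least 10.9-fold lower. The Eng difference of 1.43-fold was short of 2-fold and only 0.49 probe SDs. Acvr1, which encodes the BMP receptor ALK2, was 10.9-fold lower (190 in the stem cells, 2080 in the parental cells). Of the activin receptors, Acvr2a was at least 4.70-fold lower (32.3 in the stem cells, 439 in the parental cells), and Acvr2b 10.5-fold higher (6052 in the stem cells, 576 in the parental cells).

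Downstream of these receptors, Smad1 (466 in the stem cells, 1753 in the parental cells) was 3.76-fold lower and Smad5 (266 in the stem cells, 1414 in the parental cells) 5.32-fold lower, whereas the shared Smad4 was at 2037 in the stem cells and 2088 in the parental cells. The BMP target Id3 was 14.9-fold lower (813 in the stem cells, 12091 in the parental cells), with Id2 4.82-fold and Id1 2.27-fold lower. Mmp14, the membrane protease that sheds endoglin, was 30.2-fold lower (397 in the stem cells, 11959 in the parental cells). Ltbp2 and Ltbp3, which encode matrix proteins of the latent TGF-beta binding protein family, were 37.6-fold and 37.3-fold lower. Among ligands, Tgfb3 was at least 36.9-fold lower (64.4 in the stem cells, 3447 in the parental cells) and Tgfb1 at least 3.69-fold lower (67.2 in the stem cells, 345 in the parental cells). The BMP ligands of this list that were measured above the floor were higher, and BMP ligands outside it were not examined. Bmp7 was at least 5.23-fold higher (491 in the stem cells, 24.4 in the parental cells). Bmp4 was 3.48-fold higher (2036 in the stem cells, 584 in the parental cells) and Bmp2 2.46-fold (2351 in the stem cells, 954 in the parental cells).

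Eng is best known as an endothelial gene. Of 16 measured endothelial markers 5 were higher in the stem cells, or 4 after raising sub-floor values to the floor, 3 were lower and 3 dim, with a median of 0.44 and a sum of 9775 in the stem cells and 21715 in the parental cells. The sum was carried by Plvap, 6.41-fold lower (2798 in the stem cells, 17942 in the parental cells), and without it the sums were 6977 in the stem cells and 3773 in the parental cells. The defining endothelial gene Pecam1 was under the floor in both samples (79.8 in the stem cells, 48.9 in the parental cells), and Cdh5, the endothelial cadherin, was at 206 in the stem cells and 122 in the parental cells. The part of endothelial cells in the Eng value was not tested.

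Thy1 and Eng are also read together as surface markers of mesenchymal stromal cells. Of 19 other measured genes of that panel, positive and negative markers together, 9 were lower in the stem cells, or 7 after raising sub-floor values to the floor, 1 was higher and 1 dim. Vcam1 was at least 160-fold lower (74.4 in the stem cells, 14914 in the parental cells). Cd248 (endosialin) was 76.7-fold lower (151 in the stem cells, 11554 in the parental cells) and the collagen-binding integrin gene Itga11 at least 22.7-fold lower (56.0 in the stem cells, 2118 in the parental cells). Nt5e, which encodes CD73 and is usually read beside CD90 and CD105, was at 434 in the stem cells and 430 in the parental cells. Icam1 was 6.09-fold higher (1779 in the stem cells, 292 in the parental cells).

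The 5 genes were set beside other genes of fibroblasts and their matrix. That list was written with earlier results of these data known, so it is no independent check of the label of mesenchymal identity. Of 42 listed besides the 5 genes, 14 were measured. Of these, 13 were lower in the stem cells, or 12 after raising sub-floor values to the floor, none was higher and 1, Fbln1, was dim. The median log2 difference over the 13 above the floor was -5.34. Tnc (tenascin C) and Col6a1 (a collagen VI chain) were 172-fold and 97.8-fold lower, and Ddr2, a collagen receptor, at least 101-fold lower (89.8 in the stem cells, 9446 in the parental cells). Thy1, S100a4 and Snai2 thus had the direction of this list, and Snai1 and Eng did not.

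Pluripotency markers, the other end of the comparison, were higher in 12 of 14 measured genes and lower in none (median 5.90). The other 2 differed by less than 2-fold. They were Klf2 (1691 in the stem cells, 978 in the parental cells) and Nanog. Nanog was at 94.7 in the stem cells, barely above the floor, and at 77.7, below it, in the parental cells. Markers of macrophages and other leukocytes also moved with the mesenchymal genes. Of 10 measured, 7 were lower in the stem cells and 1, Laptm5, was higher (12204 in the stem cells, 1287 in the parental cells), and all 10 were above the floor in the parental cells against 4 in the stem cells. No marker was at 0, and the list summed to 13181 in the stem cells and 8962 in the parental cells. Without Laptm5 the sums were 977 in the stem cells and 7675 in the parental cells. Macrophages can make S100A4, and their part in the S100a4 difference was not tested. Smooth muscle and pericyte markers had 1 gene higher, 1 lower and 1 dim of 7 measured, with a sum of 6840 in the stem cells and 9089 in the parental cells.

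**Figure D4:**
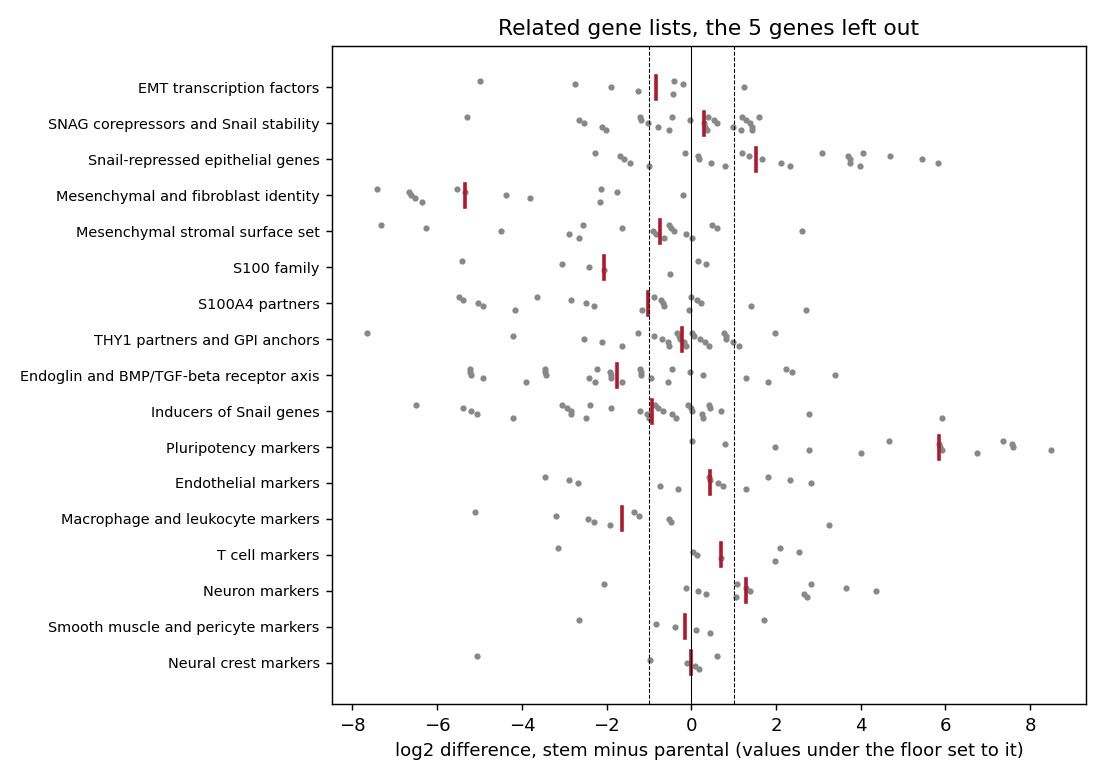
Log2 differences, stem minus parental, of the genes of each related list (grey points) with the list's median (red bar), the 5 genes and genes dim in both samples left out and values under the floor set to it. Dashed lines mark 2-fold. The mesenchymal and fibroblast list has its median at -5.34 and the pluripotency list at 5.86.

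The genes whose pair of log2 intensities lay nearest to each of the 5 were named by their distance over the 2 samples, which reflects probe brightness as well as expression. For Thy1 these were Cav1 (distance 0.64), Eln, which encodes elastin (0.69), and Tnc (0.93). For S100a4 they were Cav1 (0.27), Cdk5r1, a regulator of the kinase CDK5 (0.37), and Loxl1, an elastin cross-linking enzyme (0.69). For Snai2 they were C1qa, a complement gene of macrophages, Fam114a1 and App, the amyloid precursor gene. All 3 were, like Snai2 itself, below the floor in the stem cells, where values have no order, so that their likeness rests on the parental intensity and no distance is given. Eln was also below the floor there. Genes nearest to Snai1 were Vps33b, Dhx34 and Tfpt, all within 0.058, and those nearest to Eng were Lrrc45, Tnni3k and Eif4g2, all within 0.060. The middle of the intensity range is crowded, so that a short distance there says little, and with 2 samples no correlation can be given.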

How the data were processed

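RNA of 2 mouse samples was labelled with Cy5 and hybridised to a 1-colour array, per the labels. The deposited values are probe intensities on a linear scale, normalised by the authors. The scanner, background correction and normalisation method are not given in sources used here. Both sample titles end in Replicate 1, and whether a column is 1 array or a mean of 3 replicates could not be settled. Depth has no meaning for these arrays, and their number limits the precision.

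Of 13989 probes, 12380 could be given a gene symbol. Of these, 12364 took the RefSeq name (GRCm38.p6) matched by Entrez number, and 16 kept the symbol of the platform annotation. Intensities were taken to log2 and probes averaged per gene (Python 3.11.15, pandas 2.3.3, NumPy 2.4.6, statsmodels 0.14.6). No p-value was computed, as each group has 1 sample. The steps were tested on simulated data that held planted differences.

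The 5 genes and 17 related lists (479 memberships without the 5 genes, 291 measured) were chosen with earlier results of these data known. Named genes are the 5, the 3 nearest to each, and up to 3 each way per list by size, after raising sub-floor values to the floor. Lists of 10 or fewer genes, the S100 family, the EMT factors and the endoglin receptors could be named in full. Outside that rule, and chosen after their values were seen, are Kdm1a, Myh9, Itgav, Itgb3, Smad1, Smad4, Smad5, Tgfb1, Bmp2, Bmp4, Id1, Id2, Id3, Myh10, Mmp14, Nt5e, Pecam1, Cdh5, Nanog and Klf2. Alternatives were other scalings, probe rules, floors, filters and size rules.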

Additional observations from a re-analysis of the deposited data

How the results depend on the processing

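The 5 log2 differences kept their direction under each of the 13 alternatives that could be computed for them (12 for Snai2, which has a value under the floor in the stem cells). Many of these could not change a difference. Each gene has 1 probe, so the probe rules leave it as it is, and the other floors, filters and size rule act only on counts and calls. Thy1 ranged from -8.57 to -7.94, S100a4 from -7.45 to -6.98 and Eng from 0.40 to 0.54. For Snai2 the value was -5.25 with an offset of 50 and -5.05 after raising sub-floor values to the floor, against -6.56 as measured, because both settings raise the stem value. Snai1 ranged from 0.98 to 1.14 and was no longer 2-fold higher when each of 3 classes of probe identifiers was centred on its own median (0.98, an alternative chosen after seeing the data) or by a 4-fold rule. The median of all genes was shifted by 0.12 before centring on it, and Snai1 was at 1.01 and Eng at 0.40 after it. At 4-fold, 734 genes were higher and 1010 lower, the EMT factors had 0 higher and 2 lower, the epithelial list 1 lower and the endoglin axis 3 higher. When only genes exceeding the floor in both samples were counted, 3 EMT factors and 8 mesenchymal genes were lower and 5 epithelial genes higher. The epithelial median was then 0.32. This filter removes genes with 1 value under the floor. Of the 26 epithelial genes, 23 exceeded the floor in the stem cells and 15 in the parental cells. Spint1, Cldn6 and St14, the most raised, were among those removed, as was Vdr, the most lowered. With the floor at the 50th percentile the epithelial median was 3.40 and no EMT factor was higher (0), as with an offset of 50. Without a filter on dim genes the S100 median was -0.50. Of 468 values for the other lists, 440 moved by less than the probe SD, or by no more than 1.5 times for counts, and 28 moved further. Medians near 0 could change sign within that limit. The endothelial median did so, from 0.44 to -0.18 with the floor at the 50th percentile. No paired analysis was possible because each group has 1 sample, and no replicate could be left out. The number of arrays and signals near the floor limit what can be read.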

Other observations

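Genes of signals known to induce Snail genes were more often lower than higher in the stem cells. Of 32 measured, 16 were lower, or 14 after raising sub-floor values to the floor, 2 were higher and 2 dim, with a median log2 difference of -1.09 (-0.93 after raising sub-floor values to the floor). Egr1, an immediate early transcription factor, was 90.4-fold lower (194 in the stem cells, 17504 in the parental cells), Egfr 41.8-fold lower and Tgfb3 at least 36.9-fold lower. Hmga2, a chromatin factor reported to activate SNAI1, was 7.59-fold lower (1350 in the stem cells, 10246 in the parental cells). The higher genes were Sox2 (60.8-fold) and Pou5f1 (at least 6.82-fold), listed as pluripotency factors reported at Snail loci. Tgfb2 was at 613 in the stem cells and 503 in the parental cells, and Notch1 at 615 in the stem cells and 1227 in the parental cells. Snai1 did not share the direction of the 16 lower genes, but its own log2 difference of 1.14 was only 1.08 probe SDs. Hmga2, Notch1 and Tgfb2 were named after their values were seen.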
